A study of Mus musculus with 6 samples.

Results

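The 8 myeloid C-type lectin receptor genes described here are Clec7a, Clec4d, Clec4e, Clec4n, Clec5a, Clec4a2, Clec12a and Clec2d, which were taken by name from 35853 annotated genes and measured as the sum over each gene's transcripts. They were selected on their TPM levels and group differences in these same libraries, so both are given as a description, and the adjusted p-values only place each gene among all genes tested. Ly6G+ neutrophils of red-cell-lysed blood were divided by cell sorting on surface Ly6C, and 3 Ly6C-high and 3 Ly6C-low libraries of poly(A) RNA were sequenced. All came from wild-type BALB/C mice, bled 4 weeks after orthotopic implantation of 4T1 cells, a mouse mammary carcinoma line, so both groups share the tumour and no tumour-free group is analysed here. Whether each library is from its own mouse or from pooled mice is not in the labels, so every p-value here rests on library-to-library spread that could be purely technical.

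C-type lectin receptors are membrane proteins whose lectin-like domain binds sugars of microbes or molecules released by dying cells. The activating receptors signal through the kinase Syk to the Card9, Bcl10 and Malt1 complex and NF-kB. Dectin-1 (Clec7a) does so with a motif in its own tail, dectin-2 (Clec4n), MCL (Clec4d) and Mincle (Clec4e) through the adaptor Fcer1g, and MDL-1 (Clec5a) through the adaptors Tyrobp and Hcst. The inhibitory receptors DCIR (Clec4a2) and MICL (Clec12a) carry an inhibitory tyrosine motif that recruits phosphatases such as the product of Ptpn6, and Clr-b (Clec2d) is a ligand for NKR-P1 receptors of natural killer cells. In neutrophils such receptors are known for roles in fungal killing and in holding back responses to dead cells.

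All 8 genes lie on chromosome 6. In RefSeq's GRCm38.p6 order of protein-coding genes Clec4n, Clec4d and Clec4e follow each other directly, and Clec4a2 is separated from Clec4n by Clec4b2 alone. In the same order Clec7a stands between Clec1a and Olr1, Clec12a between Clec2m and Clec12b, and Clec2d between Clec2e and Cd69. Clec5a stands apart from the other 7, between Olfr460 and Tas2r138. Genes that are not protein-coding were left out of this order. A window around the gene start was given for 7 of the 8 genes, all but Clec4n. Those of the neighbours Clec4d and Clec4e, which were among the most abundant members, and of Clec5a, the member with the smallest p between the groups, are shown. Each runs from 250 bases before to 50 bases after the start, 5′ to 3′ (RefSeq, GRCm38.p6), with capitals marking GAGGAA, the core of PU.1-type sites, PU.1 being a factor of myeloid cells, or its reverse complement:
Clec4d, chr6:123261857-123262156, plus strand: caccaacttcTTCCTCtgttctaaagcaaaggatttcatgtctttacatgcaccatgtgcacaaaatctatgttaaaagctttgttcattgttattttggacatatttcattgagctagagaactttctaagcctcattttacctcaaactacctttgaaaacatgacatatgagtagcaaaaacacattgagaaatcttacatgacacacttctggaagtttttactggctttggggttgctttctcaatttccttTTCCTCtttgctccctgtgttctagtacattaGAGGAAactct
Clec4e, chr6:123289822-123290121, minus strand: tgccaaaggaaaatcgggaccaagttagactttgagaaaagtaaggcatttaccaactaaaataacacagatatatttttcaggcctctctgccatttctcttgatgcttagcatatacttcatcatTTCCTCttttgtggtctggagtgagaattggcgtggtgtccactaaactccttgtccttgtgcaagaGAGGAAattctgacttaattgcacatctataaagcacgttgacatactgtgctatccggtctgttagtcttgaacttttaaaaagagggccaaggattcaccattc
Clec5a, chr6:40585756-40586055, minus strand: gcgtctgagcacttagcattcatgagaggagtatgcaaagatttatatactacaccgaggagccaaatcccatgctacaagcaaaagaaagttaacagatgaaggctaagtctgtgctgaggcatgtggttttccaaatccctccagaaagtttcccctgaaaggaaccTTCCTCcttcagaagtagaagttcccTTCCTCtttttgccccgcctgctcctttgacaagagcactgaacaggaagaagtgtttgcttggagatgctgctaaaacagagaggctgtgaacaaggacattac
GAGGAA was found on either strand in the windows of 5 of the 7 genes, namely Clec4d, Clec4e, Clec5a, Clec7a and Clec12a, and in 28.3% of all 32851 such windows. The interferon-response type of motif, GAAA followed after any 2 bases by a further GAAA, on either strand, was in the windows of Clec4d and Clec2d and in 3.4% of all windows, and the match in Clec4d overlapped a GAGGAA match. The C/EBP type, TTGCNNAA on either strand, was in those of Clec4e and Clec12a and in 10.8% of all. These matches describe the letters only.

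The libraries held between 17192372 and 20973623 estimated counts. The transcripts of the sorted protein were in the order of the sort. Ly6c1 averaged 47.9 ± 7.73 CPM in Ly6C-high and 5.72 ± 1.83 CPM in Ly6C-low libraries, and Ly6c2 139 ± 22.9 and 18.6 ± 5.15 CPM (SD, n = 3 each). Of the neutrophil markers S100a8 and S100a9 alone took 34.1% to 34.9% of all TPM in the Ly6C-high and 31.65% to 33.2% in the Ly6C-low libraries. Of the 7 neutrophil markers 6 had log2 fold changes above 0, among them Mmp8 at 0.59 and Ly6g at 0.50, and their median was 0.21, as was that of the 8 receptor genes; the part of this in the receptors' values was not tested. Csf3r averaged 2323.1 ± 109 TPM in Ly6C-high and 2796.5 ± 300.1 TPM in Ly6C-low libraries (SD, n = 3 each), lower without overlap as TPM, at a log2 fold change of -0.16. Ly6C-low replicate 3 stood apart on the first principal component, at 38.02 where the others lay between -19.65 and 3.91. Summed TPM of other cells' markers was 18.9 to 23.4 in Ly6C-high and 35.7 to 37.7 in Ly6C-low libraries for 7 eosinophil genes, 2.34 to 4.06 and 6.65 to 33.65 for 6 basophil and mast cell genes, and 142 to 144 and 164 to 181 for 7 monocyte genes. Csf1r and Ctss, which neutrophils also transcribe, made up most of the monocyte sum, while the other 5 monocyte genes, at a mean of 3.19 TPM or less, had log2 fold changes between 0.68 (Ccr2) and 2.46 (Cx3cr1). Siglecf and Ear2 were the most abundant eosinophil genes, with Epx at 0 in 5 of 6 libraries, and Mcpt8 and Prss34 the most abundant basophil genes. In such bulk libraries fewer cells of a type and less RNA per cell cannot be told apart. The sums of dendritic (0.306 to 0.601 and 0.269 to 0.418), B (1.80 to 3.34 and 1.70 to 2.97), T (29.0 to 46.8 and 25.3 to 36.1), natural killer (1.10 to 1.89 and 1.08 to 2.01), platelet (8.64 to 19.9 and 9.66 to 25.0) and erythroid (396 to 1368.9 and 1012.5 to 1447) genes overlapped between the Ly6C-high and the Ly6C-low libraries. Nearly all of the T sum was Cd3d, at 24.6 to 44.1 TPM, while Cd3e, Cd3g and Trbc2 each lay at 1.52 TPM or less.

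Per length, measured as TPM, the 8 transcripts fell into 3 ranges. Clec7a, Clec4d and Clec4e were highest, Clec4a2, Clec5a and Clec12a intermediate, and Clec2d and Clec4n lowest. Clec7a averaged 636 ± 36.2 TPM in Ly6C-high and 675 ± 39.0 TPM in Ly6C-low libraries, rank 156 of all genes by mean TPM. Clec4d averaged 600.4 ± 61.2 TPM in Ly6C-high and 603 ± 23.5 TPM in Ly6C-low libraries (rank 170), and Clec4e 406 ± 29.1 and 370.4 ± 41.4 TPM (rank 271). These 3 activating receptors together made up 77.5% to 80.0% of the 8 genes' TPM in Ly6C-high and 80.5% to 81.8% in Ly6C-low libraries.

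In the middle range, Clec4a2 averaged 163 ± 6.84 TPM in Ly6C-high and 140.3 ± 12.55 TPM in Ly6C-low libraries, Clec5a 134 ± 5.54 and 107 ± 8.17 TPM, and Clec12a 111 ± 6.20 and 106 ± 8.26 TPM. Clec2d, at 17.01 ± 3.01 TPM in Ly6C-high and 12.6 ± 3.08 TPM in Ly6C-low libraries, and Clec4n, at 11.5 ± 1.95 and 17.3 ± 2.36 TPM, were at ranks 4120 and 4184 (SD, n = 3 for each mean). Some neighbours in this order did not differ beyond their spread. Clec7a was above Clec4d in 5 of 6 libraries, Clec5a above Clec12a in 5 of 6, and Clec2d above Clec4n in 3 of 6, these being the Ly6C-high libraries. The other 4 steps of the order held in all 6 libraries. This order is of all transcripts of each gene, including those not annotated as coding.

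**Figure D1:**
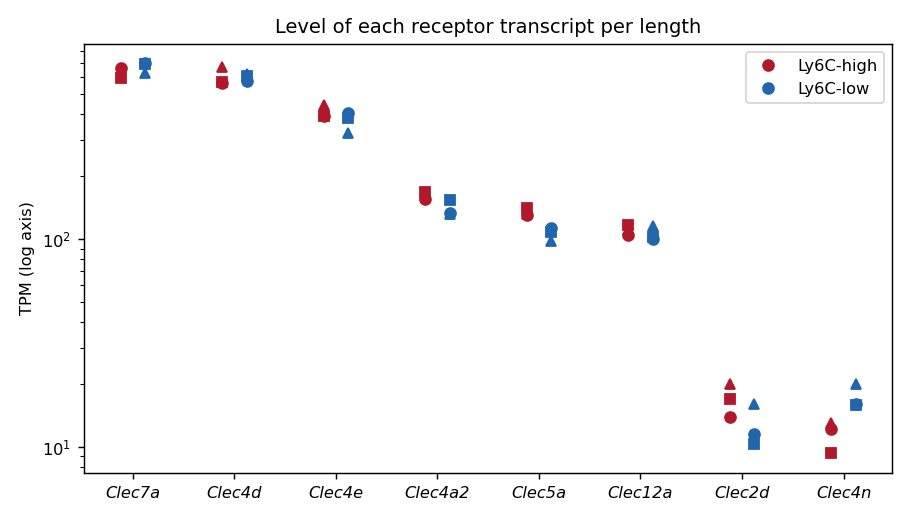
TPM of each of the 8 receptor genes (log axis), ordered by mean level, in the 3 Ly6C-high (red, left) and 3 Ly6C-low libraries (blue, right), with circle, square and triangle for replicates 1, 2 and 3. Clec7a, Clec4d and Clec4e lie at 324.6 TPM or more in every library, and Clec2d and Clec4n lie between 9.30 and 20.04 TPM.

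The 8 genes together held 2028.5, 2005.9 and 2202.6 TPM in Ly6C-high replicates 1, 2 and 3, and 2054.2, 2081 and 1956.8 TPM in Ly6C-low replicates 1, 2 and 3, so the sums overlapped. The sum of the inhibitory receptors Clec4a2 and Clec12a was 260.2, 285 and 277 TPM in the Ly6C-high libraries and 233, 258 and 248 TPM in the Ly6C-low libraries. These did not overlap, by a small margin. Clec4a2 alone did not overlap as TPM either, whereas Clec12a alone did. The share of all genes without overlap as TPM was not counted, and as CPM it was 21.1% in either direction. The sum of the 5 activating receptors was 1754.3, 1704 and 1905.9 TPM in the Ly6C-high libraries against 1809.7, 1813.1 and 1692.9 TPM in the Ly6C-low libraries, and overlapped. The ratio of activating to inhibitory TPM lay between 5.98 and 6.89 in the Ly6C-high and between 6.83 and 7.77 in the Ly6C-low libraries, which also overlapped. These sums include transcripts not annotated as coding. Their shares, given below, were larger in Clec4d, Clec4e and Clec5a than in Clec4a2 and Clec12a.

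The comparison of the groups asked which receptor transcripts differed with surface Ly6C. All 8 genes passed the filter on low counts. With edgeR's quasi-likelihood test, adjusted over the 11406 genes tested, 0 of the 8 passed an adjusted p of 0.05, where 0.0351% of all genes did, 0.0175% higher and 0.0175% lower. At an unadjusted p under 0.05 there were 5, 4 higher (Clec5a, Clec4a2, Clec2d and Clec12a) and 1 lower (Clec4n) in the Ly6C-high cells, where 6.92% of all genes were higher and 7.34% lower. The normalised counts, scaled by TMM to CPM, did not overlap between the groups for 5 of the 8: Clec5a, Clec4a2, Clec12a and Clec4e were higher and Clec4n lower in the Ly6C-high libraries, where 10.3% of all genes lay higher and 10.9% lower without overlap. The median log2 fold change was 0.21 over the 8 and -0.004 over all genes tested. DESeq2 called 1 of the 8, Clec5a, where it called 0.964% of all genes.

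**Figure D2:**
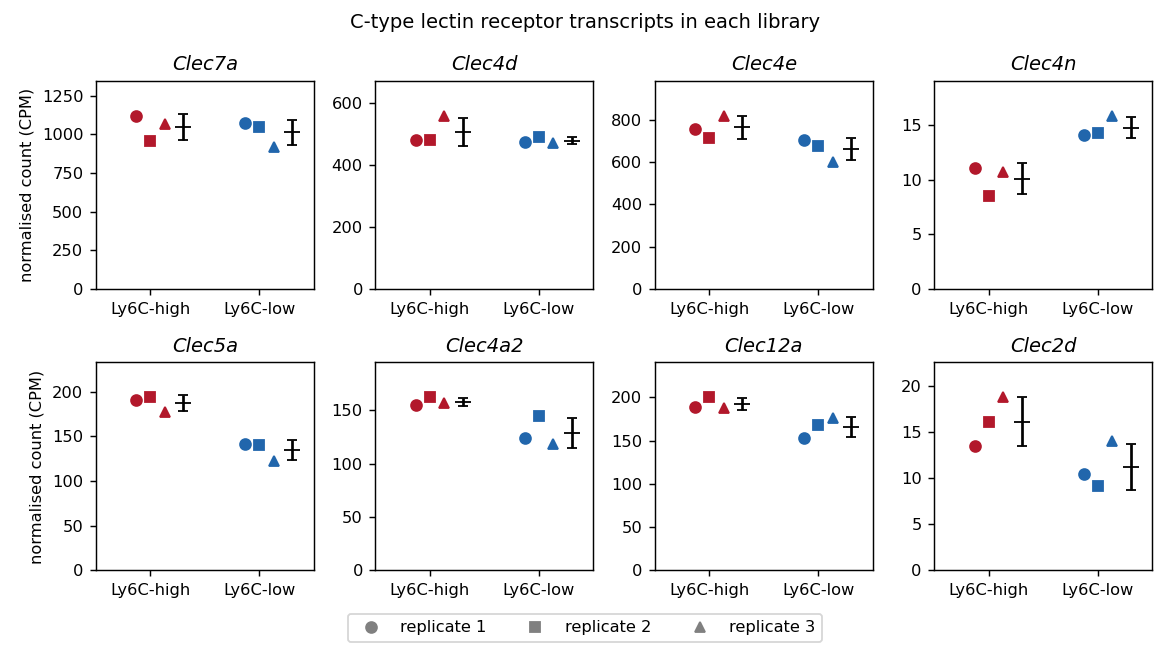
TMM-scaled CPM of each receptor gene in the Ly6C-high (red, left) and Ly6C-low libraries (blue, right), each axis from 0, with circle, square and triangle for replicates 1, 2 and 3 and a bar for the mean ± SD of 3 libraries. The groups are apart for Clec5a, Clec4a2, Clec12a, Clec4e and Clec4n, and overlap for Clec7a, Clec4d and Clec2d.

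Clec5a encodes MDL-1, which pairs with Tyrobp and Hcst and also binds flaviviruses. It measured 191, 194 and 177 CPM in Ly6C-high replicates 1, 2 and 3, against 141.5, 140.1 and 122 CPM in Ly6C-low replicates 1, 2 and 3. Every Ly6C-high library was above every Ly6C-low library. The log2 fold change was 0.48 ± 0.09 (standard error), which is a fold change of 1.39 (95% confidence interval 1.21 to 1.60), at an edgeR adjusted p of 0.142. DESeq2 gave a log2 fold change of 0.49 and called it (adjusted p 0.00209), while edgeR's adjusted p with 1 library left out lay between 0.0682 and 0.568. Without a filter on low counts edgeR called 3 members, Clec5a, Clec4n and Clec2d, where 2.13% of all genes were called.

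Clec4a2 encodes DCIR, an inhibitory receptor of myeloid cells. It measured 155, 162.5 and 157 CPM in the Ly6C-high libraries, against 124, 144.5 and 118 CPM in the Ly6C-low libraries, without overlap. The fold change was 1.23 (95% interval 1.06 to 1.42, adjusted p 0.233). Of its words of 31 bases 10.9% also occur in transcripts of 1069 other genes, so how reads of those words were divided is uncertain. Clec4a4, first among these genes, shares 145 of the 319 words concerned. It was given between 6.03 and 14.2 estimated counts per library and Clec4a2 at least 2229.8. The counts of the other sharing genes were not examined. The 5 monocyte genes other than Csf1r and Ctss had log2 fold changes above 0, while those of Csf1r and Ctss were below 0. The part of the monocyte genes in the values of Clec4a2, Clec12a, Clec4e, Clec5a and Clec2d was not tested. Clec12a encodes MICL, the other inhibitory receptor, which binds uric acid crystals. It measured 189, 200.1 and 187 CPM in the Ly6C-high libraries, against 153, 167 and 176 CPM in the Ly6C-low libraries. The groups did not overlap as CPM, with a fold change of 1.16 (1.02 to 1.33, adjusted p 0.312), but they did as TPM, where Ly6C-low replicate 3 at 115 was above Ly6C-high replicates 1 and 3 at 105 and 110.3.

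Clec4n, which encodes dectin-2, a receptor for fungal mannans, was the 1 member with a log2 fold change below 0. It measured 11.1, 8.48 and 10.7 CPM in the Ly6C-high libraries, from 210, 159 and 219 estimated counts, against 14.1, 14.3 and 15.9 CPM in the Ly6C-low libraries, from 282, 273 and 299. Every Ly6C-high library was below every Ly6C-low library. The difference was -0.54 ± 0.14 (log2 fold change and standard error), and edgeR's adjusted p was 0.192. The summed eosinophil and basophil markers given above were also lower in the Ly6C-high libraries. The summed monocyte markers were lower too, through Csf1r and Ctss, while the other 5 monocyte genes had log2 fold changes above 0. The part of all these markers in the difference of Clec4n was not tested. Within each library Clec4d exceeded Clec4n by 46.0, 61.3 and 51.55 times per length in the Ly6C-high libraries and by 35.9, 38.55 and 30.98 times in the Ly6C-low libraries. This ratio does not depend on the scaling of the libraries and did not overlap between the groups. With Clec4d at means of 600.4 and 603 TPM, it largely restates the difference of Clec4n. The share of other genes' ratios without overlap was not counted.

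Clec2d encodes Clr-b, the only one of the 8 known as a ligand for natural killer cell receptors. It measured 13.5, 16.1 and 18.8 CPM in the Ly6C-high libraries, from 255, 302 and 384 estimated counts, against 10.5, 9.17 and 14.0 CPM in the Ly6C-low libraries, from 210, 175 and 264. Ly6C-low replicate 3 lay above Ly6C-high replicate 1, so the groups overlapped. The fold change was 1.44 (95% interval 1.10 to 1.88, adjusted p 0.239), and with 1 library left out the log2 fold change of 0.53 lay between 0.40, without Ly6C-low replicate 2, and 0.72, without Ly6C-low replicate 3 (adjusted p between 0.0871 and 0.574). Of its words of 31 bases 11.8% occur in other genes' transcripts, most of all in Clec2i, which limits the certainty of its count.

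Clec4e encodes Mincle, a receptor for mycobacterial cord factor and for a protein of dead cells, and Clec4d encodes its partner MCL. Clec4e measured 759, 714.5 and 820.4 CPM in the Ly6C-high libraries, against 706, 678 and 603 CPM in the Ly6C-low libraries. The lowest Ly6C-high value was above the highest Ly6C-low value by a small margin, the fold change of 1.15 had a 95% interval from 0.988 to 1.35 (adjusted p 0.388), and as TPM the groups overlapped. Clec4d measured 483, 482 and 560.4 CPM in the Ly6C-high libraries, against 475, 492 and 473 CPM in the Ly6C-low libraries. These overlapped, with Ly6C-high replicate 3 above the other 5 libraries, and the fold change was 1.06 (0.915 to 1.23, adjusted p 0.738). The ratio of Clec4d to Clec4e per length was 1.44, 1.46 and 1.53 in the Ly6C-high libraries and 1.42, 1.60 and 1.91 in the Ly6C-low libraries.

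Clec7a encodes dectin-1, the receptor for fungal beta-glucan, and was the most abundant of the 8. It measured 1120.3, 957 and 1067 CPM in the Ly6C-high libraries, against 1071, 1046 and 919 CPM in the Ly6C-low libraries, which overlapped. The fold change was 1.04 (95% interval 0.881 to 1.22, adjusted p 0.862). With scaling by library size alone, under which the median over all genes was -0.11 in log2 units, the log2 fold change was -0.05 for Clec7a and -0.02 for Clec4d. Leaving out Ly6C-high replicate 1 also gave -0.001 for Clec7a, and leaving out Ly6C-low replicate 3 gave -0.013.

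**Figure D3:**
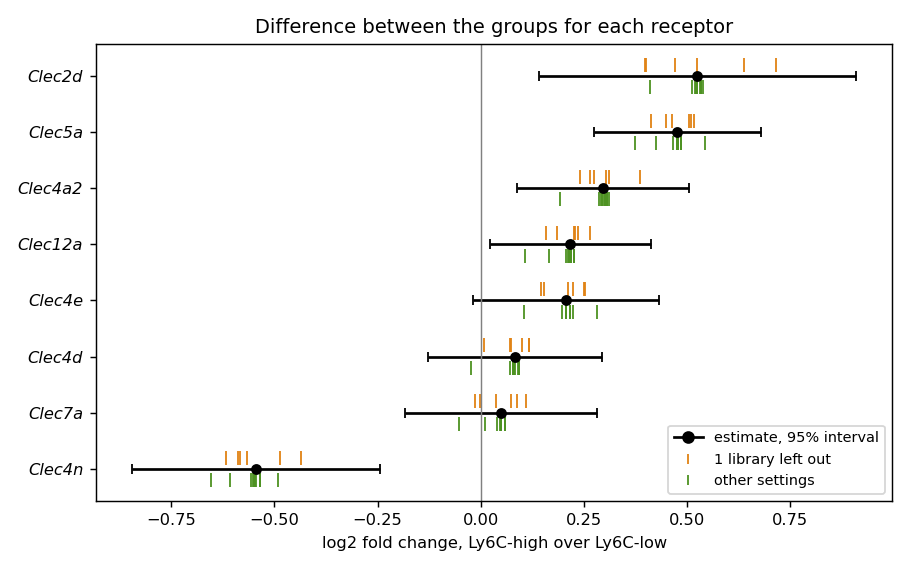
Log2 fold change of each receptor gene, Ly6C-high over Ly6C-low, with its 95% interval (black), the values with 1 library left out (orange, above) and those under the other settings (green, below). Clec4n alone lies at a negative value, -0.54, and the marks of Clec7a and Clec4d reach 0 or cross it.

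The Clec7a transcripts are shown because the annotated models differ at the end of exon 2. Mouse dectin-1 is known in a long form, with a stalk between the membrane and the lectin domain, and a short form without it. In GENCODE M21 the model Clec7a-202 skips exon 3, which is 135 bases long in Clec7a-204, and joins exon 2 to the next exon. Clec7a-201 keeps exon 3 with a shifted boundary, so that exon 2 has 109 bases in place of 99 and exon 3 125. The 24 bases before the end of exon 2 are in lower case and the 24 that follow in capitals, from GENCODE M21 (GRCm38, chromosome 6, minus strand), 5′ to 3′:
Clec7a-204: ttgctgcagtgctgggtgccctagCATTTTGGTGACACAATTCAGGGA
Clec7a-201: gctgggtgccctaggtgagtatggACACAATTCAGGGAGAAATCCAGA
Clec7a-202: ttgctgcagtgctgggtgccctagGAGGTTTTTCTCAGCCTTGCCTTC
Read from the annotated start codon, the reference sequence of Clec7a-204 has a stop codon after 70 codons, just past this junction, and the annotation calls it a polymorphic pseudogene. Clec7a-201 reads on for 244 codons and Clec7a-202 for 199. That reference is of C57BL/6J mice, and whether the BALB/C sequence holds this stop codon was not tested.

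Clec7a-204 held 19945, 16720.1 and 20516 estimated counts in the Ly6C-high libraries and 19951, 18507 and 16085 in the Ly6C-low libraries. Clec7a-201, which differs from it at the junction and by 5′ bases, was given 34.6, 0.0 and 0.0 counts in the Ly6C-high libraries and 0.0, 32.8 and nearly 0 in the Ly6C-low libraries. Reads of the models with exon 3 were thus assigned almost wholly to Clec7a-204. Clec7a-202, without exon 3, measured 133, 137 and 131 TPM in the Ly6C-high libraries, against 165, 169.6 and 153 TPM in the Ly6C-low libraries. Its share of Clec7a's TPM was 20.00%, 23.02% and 20.11% in the Ly6C-high libraries and 23.62%, 24.35% and 24.28% in the Ly6C-low libraries, lower in every Ly6C-high library. No test was made of it. Of the 28 transcripts of the members that had at least 1 TPM and were not alone in their gene, 5 had shares without overlap, or 17.9%, where 8.64% of all 20157 such transcripts did. They were Clec7a-204 and Clec7a-202, whose shares went in opposite directions within 1 gene, Clec5a-202, Clec5a-204 and Clec4a2-205. Clec5a-204 was given at most 31.5 and Clec4a2-205 at most 7.68 estimated counts in any library. The last exon of the model has 142 bases in Clec7a-202 and 1577 in the other 2 models, so reads from most of that exon can be given only to a model with exon 3, and the split depends on these models.

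Clec4d, Clec4e, Clec5a, Clec4n and Clec12a also had TPM in transcripts that are not annotated as coding. Transcripts annotated as coding held 50.5% to 55.35% of the TPM of Clec4d and 46.0% to 57.45% of that of Clec4e over the 6 libraries. They held 57.35% to 65.7% for Clec5a and 69.55% to 96.6% for Clec4n, and 93.58% to 96.9% for Clec12a. Clec4a2 and Clec2d had all their TPM in coding transcripts, a single one for Clec2d. Clec4d-203, a model subject to nonsense-mediated decay, held 39.8% ± 2.93 of the TPM of Clec4d in Ly6C-high and 39.99% ± 1.93 in Ly6C-low libraries (SD, n = 3 each). Clec4e-203, a retained-intron model, held 34.1% ± 1.33 of that of Clec4e in Ly6C-high and 36.0% ± 1.99 in Ly6C-low libraries. The coding model Clec4e-207 held 10.9% to 11.2% in Ly6C-high libraries and 14.1%, 13.4% and 3.93% in Ly6C-low replicates 1, 2 and 3. With coding transcripts alone, a setting added after the data were seen in which the polymorphic pseudogene model Clec7a-204 was kept, 0 of the 8 passed and the log2 fold change of Clec5a was 0.54, of Clec4e 0.28 and of Clec4n -0.61.

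**Figure D4:**
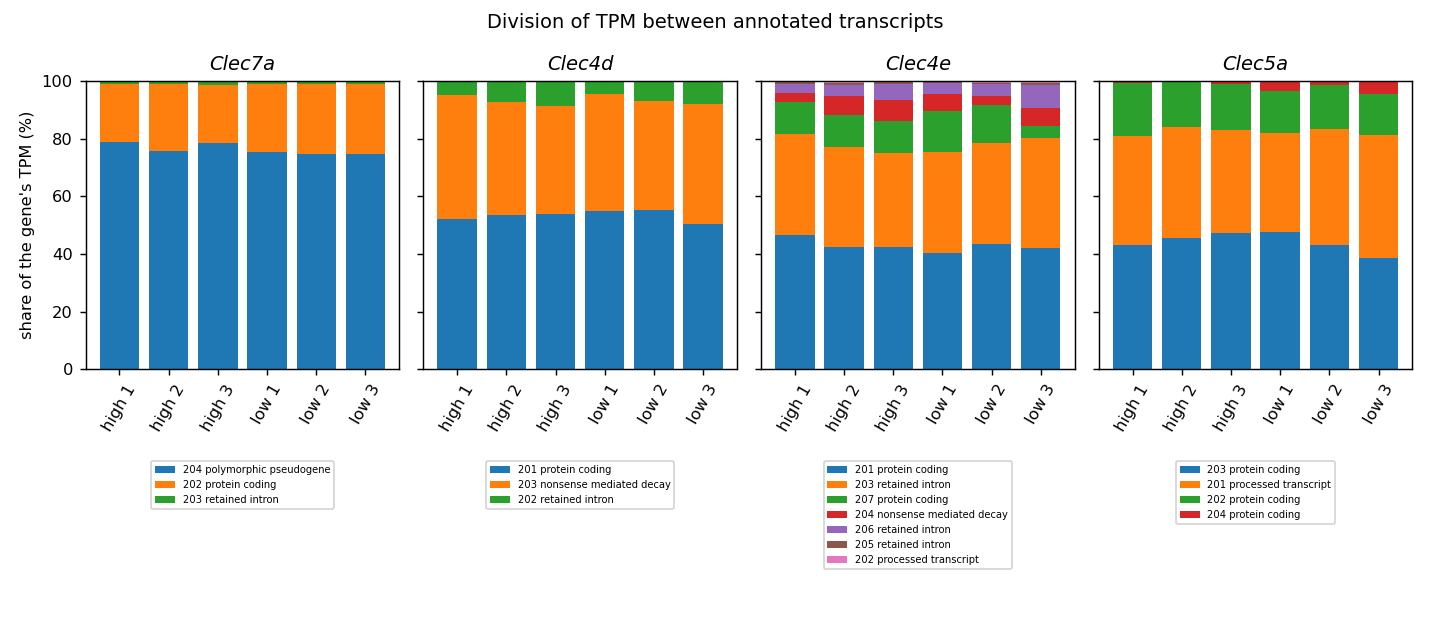
Share of the gene's TPM (%) given to each annotated transcript with at least 1 TPM, for Clec7a, Clec4d, Clec4e and Clec5a, in the 3 Ly6C-high libraries (left) and the 3 Ly6C-low libraries (right). The Clec7a model without exon 3 (202) holds 20.00% to 23.02% in the Ly6C-high and 23.62% to 24.35% in the Ly6C-low libraries.

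No gene of the adaptors and the Syk-Card9 pathway, through which these receptors signal, passed the test. Of 35 genes listed 33 were tested, and 5 were higher and 2 lower at an unadjusted p under 0.05, where 6.92% of all genes were higher and 7.34% lower. The same shares of all genes stand beside such counts in the lists that follow. DESeq2 called 0 of the 33, where it called 0.964% of all genes. Of edgeR's log2 fold changes 21 were above 0 and 12 below, with a median of 0.06. Tyrobp and Fcer1g, the adaptors, were far above the receptors per length at 2268.7 and 1302.9 TPM over all 6 libraries, with log2 fold changes of -0.01 (95% interval -0.21 to 0.20) and 0.02 (-0.19 to 0.23). Hcst, the other adaptor of MDL-1, had a value of -0.20 and Syk, the kinase, one of 0.07. Of the complex below Syk, the log2 fold change was -0.26 for Card9, 0.16 for Bcl10 and 0.07 for the protease gene Malt1. Card9 measured 34.8, 35.9 and 44.6 CPM in Ly6C-high libraries, against 46.6, 34.3 and 57.2 CPM in Ly6C-low libraries, which overlapped.

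The 4 genes of the pathway with the smallest p were Nfatc2, Trim62, Lyn and Map3k7, and none of these 4 passed. All 4 had CPM without overlap between the groups. Of the 33 pathway genes tested 6 lay higher and 2 lower without overlap, where 10.3% and 10.9% of all genes did. Lyn, a Src-family kinase that phosphorylates both activating and inhibitory receptors, averaged 997 ± 16.3 CPM in Ly6C-high and 842 ± 62.3 CPM in Ly6C-low libraries, without overlap, with a log2 fold change of 0.24 and an adjusted p of 0.300. Map3k7, the kinase TAK1, had a value of 0.22 and Nfatc2, a transcription factor, one of -0.37. Trim62, a ubiquitin ligase for Card9, was near the limit of detection at 0.310 ± 0.106 CPM in Ly6C-high and 0.776 ± 0.224 CPM in Ly6C-low libraries (SD, n = 3 each).

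Of the phosphatases and other negative regulators none passed. All 16 listed genes with a match were tested, 1 was higher and 2 lower at an unadjusted p under 0.05, 14 lay above 0 and 2 below, and the median log2 fold change was 0.095. The phosphatases that inhibitory receptors recruit had values of 0.07 for Ptpn6, 0.07 for Ptpn11 and 0.07 for Inpp5d. The smallest p-values belonged to Dok1, an adaptor that restrains signalling, at -0.42, Ptprj, a receptor phosphatase, at 0.34, Otud1, a deubiquitinase, at -0.49, and Cbl, a ubiquitin ligase, at 0.27, with adjusted p between 0.214 and 0.350. Of 19 genes that these receptors are known to induce, 12 were tested, 0 passed, 7 lay above and 5 below 0, and the median was 0.03, with 1 higher and 1 lower at an unadjusted p under 0.05. The chemokine gene Ccl3 had a value of -1.09 (adjusted p 0.264), with 1.59, 1.6 and 1.71 CPM in Ly6C-high libraries against 1.95, 2.67 and 5.83 CPM in Ly6C-low libraries, the last being Ly6C-low replicate 3. The cytokine gene Tnf had a value of 0.50, Ptgs2, which encodes cyclooxygenase-2, one of 0.37, and Nos2, the inducible nitric oxide synthase, one of 0.15, none of which passed.

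Few other C-type lectin genes were measured at a like level. Of 51 further genes matched, 43 were below a mean of 5 TPM and 18 were tested, with 0 passing, 1 higher and 0 lower at an unadjusted p under 0.05, 10 above and 8 below 0 and a median log2 fold change of 0.07. Of those at 5 TPM or more, Selp, the P-selectin gene, was at a mean of 76.3 TPM over the 6 libraries (log2 fold change 0.07), Ly75, which encodes DEC-205, at 26.9 TPM (0.33, the gene with an unadjusted p under 0.05, though its groups overlapped), and Clec4a3, a relative of Clec4a2, at 26.2 TPM (0.13). Cd209c was at 10.8 TPM (0.15), Clec16a, which despite its name acts in autophagy, at 8.92 TPM (-0.02), Clec4a1 at 6.505 TPM (0.07) and Clec2g at 5.54 TPM (-0.08). The spread between libraries was wide for Clec4a3, whose log2 fold change had a 95% interval from -1.08 to 1.34.

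**Figure D5:**
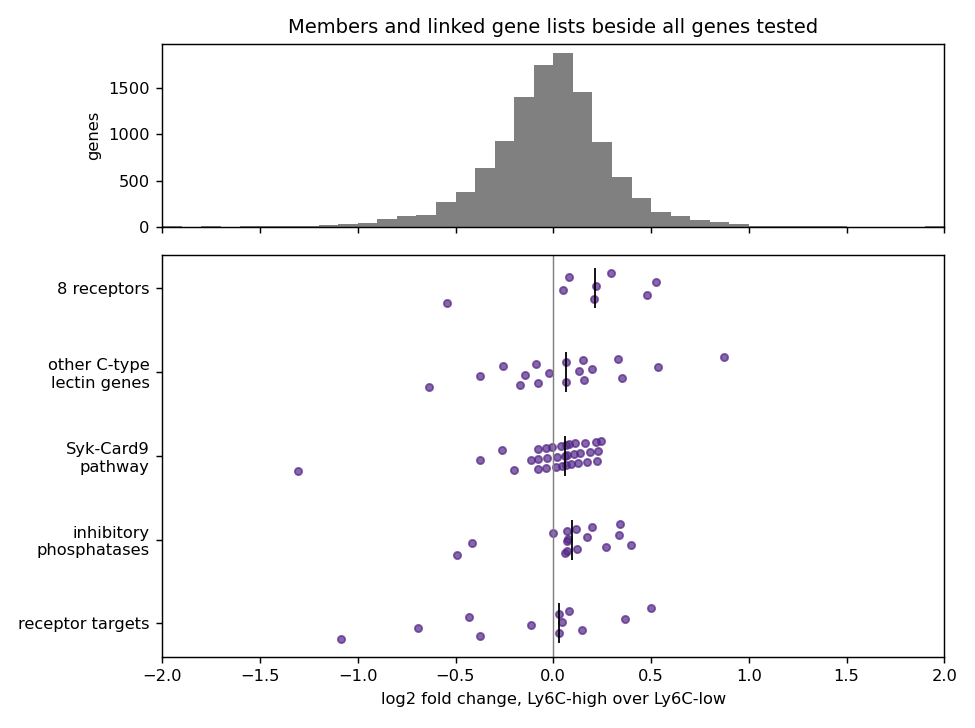
Top, number of genes by log2 fold change, Ly6C-high over Ly6C-low, in bins of 0.1 for all 11406 genes tested, with values past the axis in the end bins. Bottom, the same for each tested gene of the 8 receptors and 4 lists (dots) with each median (bar): 0.21 for the receptors, 0.07 for other C-type lectins, 0.06 for the pathway, 0.095 for phosphatases and 0.03 for targets.

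Clec2d and Clec4n varied most over the 6 libraries, with an SD of 0.38 and 0.33 on the log2 CPM scale, against 0.09 for Clec4d, the steadiest member. Among 7260 other genes with a mean of at least 5 CPM, the 3 whose centred log2 CPM lay nearest to that of Clec2d were Ifrd1, Ccdc167 and Dnah14, with root mean square differences of 0.11, 0.12 and 0.13 over 6 libraries. For Clec4n they were Rbbp7, Gm5617 and Mrpl50, at 0.03, 0.08 and 0.09. These 6 genes lie on other chromosomes than the receptors, and edgeR's adjusted p for them was between 0.188 and 0.521.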

How the data were processed

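Libraries of captured poly(A) RNA were prepared with a dUTP kit that marks the strand and read from 1 end, per the labels' protocols and design text. The authors quantified reads with kallisto, which divides reads that match several transcripts between them, and named build GRCm39, per the submitters' processing notes. For version, index and strand setting the sources used here give nothing, so whether reads of antisense genes were told apart is not known. The deposited tables give estimated counts, TPM and effective lengths for 117486 transcripts per library, per the file headers, of which 99.04% were matched by identifier to GENCODE M21 (GRCm38). Estimated counts were summed per gene and rounded, unmatched transcripts left out. TPM was summed per gene as deposited by the authors.

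The test was that of edgeR 4.0.16 under R 4.3.3 (filterByExpr, TMM, robust quasi-likelihood F test, group as the term, Benjamini-Hochberg over 11406 genes, threshold 0.05, common biological coefficient of variation 13.7%). Every fold change has Ly6C-high on top. The step was tested on simulated data. Alternatives were the replicate number as a block, other scalings and filters, DESeq2 1.42.0, limma 3.58.1 voom, length-scaled TPM, protein-coding genes, each library left out, and, added later, coding transcripts alone.

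The members and gene lists were chosen with earlier results of these data known. Besides the members, named genes were other lectins with at least 5 TPM, the 4 of each list with the smallest p, the adaptor and signal genes, the 2 most abundant markers of each cell type, and the 3 nearest patterns of the 2 most variable members. Of cell types whose sums overlapped, markers are given as sums, apart from the T cell genes. Not every gene so named is reported here. Precision rests on 3 libraries per group, and the protocols name no molecular identifiers, so PCR copies may be among the reads.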

Additional observations from a re-analysis of the deposited data

How the results depend on the processing

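Of the 8 receptor genes 0 passed in the fit reported, and 0 did so with DESeq2 size factors, library size alone, a mean count of at least 10, voom, length-scaled TPM, protein-coding genes alone (which drop Clec7a, annotated as a polymorphic pseudogene), coding transcripts alone (with Clec7a-204 kept) or any 1 library left out. DESeq2 called 1 member and no filter 3. Over all genes the count of 4 became 110 with DESeq2, 439 with no filter, 8 with library size alone, 2 with length-scaled TPM and between 2 and 22 with 1 library left out, 22 being without Ly6C-low replicate 3. Blocking on the replicate number gave 61, with 1 member among them, Clec5a (adjusted p 0.0376). Same-numbered deviations from the group means correlated at 0.237, -0.037 and 0.239, and those of unlike number at -0.312 to 0.11. Replicates 1 and 3 were thus most like their own number and replicate 2 was not. With 3 libraries per group such values cannot settle whether the numbers pair the libraries. Of 127 log2 fold changes of members under the alternatives, 118 kept their sign and side of the threshold, 5 crossed to significance and 4 changed sign. The sign changes were -0.023 for Clec4d and -0.053 for Clec7a with library size alone, and Clec7a without single libraries, in a range from -0.013 to 0.11. The share of the 8 genes was 0.208% of TPM in Ly6C-high and 0.203% in Ly6C-low libraries. Their summed TMM-scaled CPM, written as a percent, was 0.289% in Ly6C-high and 0.261% in Ly6C-low libraries. That value is not a share of a total, as CPM is not per length and TMM scaling leaves the library totals unequal. The causes of the shifts were not tested. Clec4n and Clec2d rest on between 159 and 384 estimated counts per library, the lowest counts of the 8 genes, which limits their precision.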
